A study of Mus musculus with 4 samples.

Results

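Cluster 08 is 1 of the 8 groups into which the authors clustered single brain cells, mostly microglia, of cuprizone-fed and control mice, and its members are the cells that carry this cluster name in the deposited annotation. It held 341 of the 3023 cells. Microglia are the resident macrophages of the brain. The cells were sorted as live CD11b+ CD45low cells from male mice of 12 to 14 months that had been fed for 12 weeks with control diet or with 0.2% cuprizone, which binds copper and causes loss of oligodendrocytes and their myelin. The 4 groups were Trem2 +/+ on control diet, Trem2 +/+ on cuprizone, Trem2 +/- on cuprizone and Trem2 -/- on cuprizone, called control, wild type, heterozygote and knockout below. Each group was 1 library of 2 pooled hemibrains, and no Trem2-deficient library on control diet was analysed here. The labels do not name the knockout allele or the strain. With 1 library a group there is no replicate check and no test of a condition. Every interval below is a 95% interval that covers counting error only, and unique molecular identifiers (UMIs, tags that mark single captured RNA molecules) are the counts.

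TREM2 is a lipid-sensing receptor of microglia that signals through the adaptor Tyrobp. Around myelin debris and amyloid, microglia lose part of their resting gene set (P2ry12, Tmem119, Cx3cr1) and take on a disease-associated (DAM) programme. An early stage of it, with Apoe and Tyrobp, is held to run without TREM2, and a later stage, with Lpl, Spp1 and Cst7, to need it. Microglia can also enter an antiviral state, in which type I interferon acts through a transcription factor complex on genes such as Ifit1, Ifit3 and Isg15.

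Cluster 08 took up a larger share of the knockout library than of any other library. It held 13 of 571 control cells (2.28%, exact binomial interval 1.22 to 3.86), 76 of 765 wild-type cells (9.93%, 7.91 to 12.3), 77 of 802 heterozygote cells (9.60%, 7.65 to 11.9) and 175 of 885 knockout cells (19.8%, 17.2 to 22.6). The knockout library thus supplied 51.3% of the members. The wild-type and heterozygote intervals overlapped, and the knockout interval overlapped none of the others. Cluster 04, the group led by Spp1 and Lpl, showed the opposite order, with 15.9% of wild-type (13.4 to 18.7), 18.7% of heterozygote (16.1 to 21.6) and 1.47% of knockout cells (0.784 to 2.5). Cluster 06, a group rich in resting-microglia genes, held 15.9%, 13% and 15.1% of the same 3 libraries and 23.5% of the control library. These are shares of cells, so a larger share of one cluster lowers the others.

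**Figure D1:**
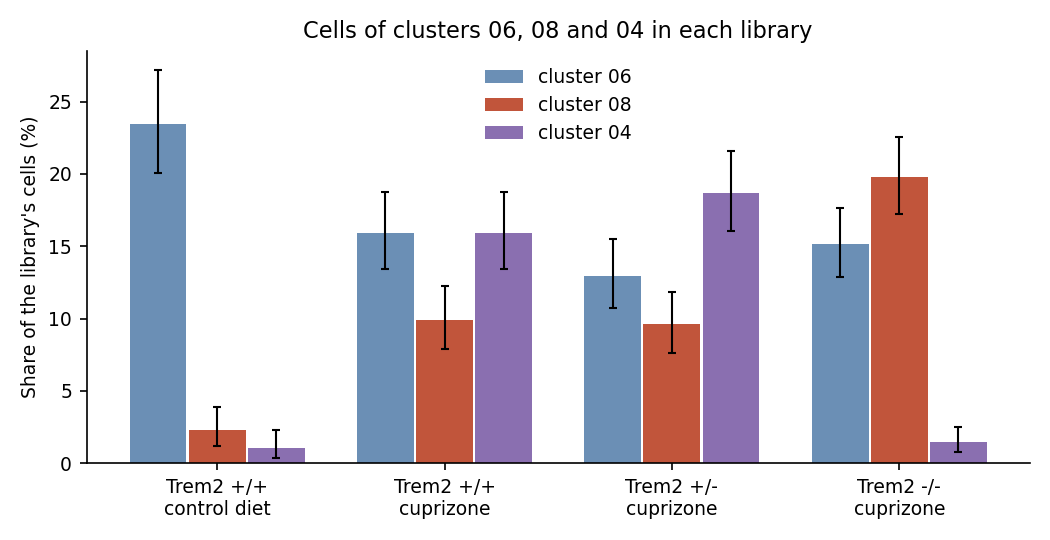
Share of each library's cells (percent, y axis) in clusters 06, 08 and 04, for the 4 libraries; bars are the shares and whiskers the exact binomial 95% intervals. Cluster 08 lay at 19.8% in the knockout and at 9.93% and 9.60% in wild type and heterozygote, while cluster 04 lay at 1.47% in the knockout.

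The members were microglia by their markers. All 14 microglial markers had at least 50 UMIs, each of the 341 cells had at least 2 UMIs of them, and together they made up 46604 CPM (counts per 1000000, a gene's UMIs scaled to that total over the cells summed). Markers of other cell types summed to few UMIs beside these, but they were spread over many cells. At least 2 UMIs were found in 89 cells for border macrophage markers, 90 for monocyte, 82 for choroid plexus, 80 for oligodendrocyte and 46 for neutrophil markers. The neutrophil list summed to 225 UMIs with Ly6g at 0, and stood at 0, 41.7, 185 and 96.9 CPM in control, wild type, heterozygote and knockout. Monocyte markers summed to 389 UMIs with Ccr2 and Itga4 at 0, border macrophage markers to 595, oligodendrocyte markers to 374 and choroid plexus markers to 343. Only 5 of the 14 T and NK cell markers were in the count table, and the other 9 were not analysed here. Of the 5, Nkg7, Klrb1c and Lck were at 0, and 219 of the list's 220 UMIs were Ccl5. Depth per library in the cluster was 84947, 455283, 449172 and 1268844 UMIs in the order control, wild type, heterozygote and knockout, with medians of 5319, 5857, 5108 and 6285 UMIs per cell. The median mitochondrial share was 1.43%, 1.40%, 1.34% and 1.12%. Across the files 16 cells carry a barcode that occurs in 2 libraries, and 2 of these cells are members.

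Of the 4 genes that mark the cluster, 3 describe few of its cells. Apoe, the main apolipoprotein of the brain (ENSMUSG00000002985, chr7:19696109-19699188, minus strand, mm10), had a UMI in all 341 cells. Ifit3 (ENSMUSG00000074896) had a UMI in 54 cells (15.8%, 12.1 to 20.2), the chemokine gene Ccl5 (ENSMUSG00000035042) in 28 (8.21%, 5.53 to 11.6) and Ifit1 (ENSMUSG00000034459) in 18 (5.28%, 3.16 to 8.21). The cluster is therefore described below by the genes that most of its cells share, and the cells with Ifit1, Ifit3 or Ccl5 are taken up as subsets.

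Genes seen in every cell were mainly those of translation, lysosomes, complement and microglial identity. A UMI was present in each of the 341 cells for 77 genes, in at least 90% of cells for 266 and in at least 50% for 1032, of 11844 genes detected in the cluster. Ribosomal protein genes were 42 of the 77 and 80 of the 266. The protease inhibitor Cst3 was the most abundant transcript with 5.86% of all UMIs, followed by Apoe with 3.22%, the nuclear RNA Malat1 with 1.97%, the actin-binding Tmsb4x with 1.30% and the lysosomal protease Ctsd with 1.21%. The complement genes C1qa, C1qb and C1qc, the cathepsin Ctss and the ferritins Ftl1 and Fth1 were also seen in every cell.

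The lists separate this common set from the later activation genes. At least 90% of cells had a UMI for 13 of 24 homeostatic genes (22 in at least 50% of cells), for 17 of 25 lysosomal genes and for 7 of 8 genes of the early, TREM2-independent DAM stage. The later, TREM2-dependent stage reached that share for 5 of 15 genes. None of 20 further disease-associated genes and none of 46 interferon-induced effectors reached it, and at least 50% of cells had a UMI for 1 and 5 of these. Most members thus had UMIs of both resting-microglia and early DAM genes, while later DAM and interferon genes were seen in fewer cells at this depth. These list counts were not compared with other clusters, so they do not mark this one. In cells thinned to the same number of UMIs, the early gene Apoe was expected in 99.95% of cluster 06 and 99.98% of cluster 08 cells. For the early gene Ctsb these shares were 99.9997% and 99.998%.

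Against the other 5 microglial clusters pooled (01, 02, 04, 05 and 06), few genes stood out, and since expression made the clusters, these ratios are a description. The 12 genes with the largest ratios ran from Ccl5 (2.41, 2.07 to 2.80) and Ifit3 (2.37, 2.05 to 2.74) through Apoe (1.76, 1.74 to 1.77), the cytokine Il1b (1.62, 1.49 to 1.76) and the metalloprotease inhibitor Timp2 (1.61, 1.55 to 1.67) to Npc2 (1.40, 1.36 to 1.45), a lysosomal cholesterol carrier. The others were the chemokine-binding receptor Ccrl2, the respiratory chain factor Cox7a2l, the RNA ligase Rtcb, the lysosomal protease Ctsb, the translation factor Eif3e and the MHC class I gene H2-D1. Apoe stood at 32179 CPM, against 5931 in cluster 06 and 54392 in cluster 04. Ccl5 (97.0 CPM in cluster 08 and 103 in 04), Ctsb (5516 and 6686) and H2-D1 (2239 and 2354) were not higher than in cluster 04 either. The rest of the 12 had more CPM in cluster 08 than in 04. The lowest ratios were those of Cd74, the invariant chain of MHC class II (0.46, 0.43 to 0.49), the immediate early factor Egr1 (0.48, 0.45 to 0.52) and the class II gene H2-Ab1 (0.49, 0.42 to 0.56). Cx3cr1, the fractalkine receptor of resting microglia, was also low (0.53, 0.51 to 0.55). Its level of 1352 CPM lay near those of clusters 06 (1642) and 04 (1314) and below the 3270 CPM of cluster 02.

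Cluster 08 lay between clusters 06 and 04 in most genes that set those 2 apart. Here a position of 0 is the level in cluster 06 and 1 that in cluster 04, on the log2 scale. At least 2-fold higher in cluster 04 than in 06 were 402 genes, with a median position of 0.46 (quartiles 0.25 and 0.74), and 335 of them (83.3%) lay between the ends. At least 2-fold lower were 448 genes, with a median position of 0.53 (0.40 and 0.69), and 410 (91.5%) lay between. Scaling with TMM factors (trimmed mean of M values), which shifts the ratio of cluster 04 to 06 by 0.23 on the log2 scale and that of 08 to 06 by 0.20, turned the split into 552 higher and 173 lower genes. The median positions were then 0.52 and 0.46. Depth followed the same order, with medians of 3541, 5817 and 10695 UMIs per cell in clusters 06, 08 and 04, and its part in the positions was not tested. In total profile no single cluster was nearest by every measure. The median absolute log2 ratio was 0.23 to cluster 04 (7030 genes), 0.28 to cluster 02 (9238 genes) and 0.299 to cluster 06 (6331 genes). Spearman's rho across genes was 0.940 with cluster 04, 0.959 with cluster 02, 0.954 with cluster 05 and 0.942 with cluster 06, over gene sets of unequal size.

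The gene groups did not move the same distance. Beside the list counts stand the shares of all genes: 3.21% were at least 1.5-fold higher in cluster 08 than in 06 and 10.6% lower, while 4.17% were higher than in 04 and 5.99% lower. Homeostatic genes sat midway: 10 of 24 were lower than in cluster 06 and 12 higher than in cluster 04, with a median position of 0.49 over the 14 that differed 2-fold between the ends. The purine receptors P2ry12 and P2ry13 and the surface protein Tmem119 had positions of 0.47, 0.50 and 0.50. Early DAM genes had a median position of 0.52 over 4 genes, with Apoe at 0.76 and the lysozyme Lyz2 at 0.56. Later DAM genes lay nearer to cluster 06, with a median of 0.37 over 10 genes, and the further disease-associated genes nearer still, at 0.27 over 19 genes. Of that last group 18 of 19 were at least 1.5-fold lower than in cluster 04.

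Single genes show the spread within the later DAM programme. Spp1, which encodes osteopontin, was 84.8-fold higher in cluster 04 than in 06, yet only 1.23-fold higher in cluster 08 than in 06 (position 0.05). The lipoprotein lipase Lpl had a position of 0.12, the galectin Lgals3 0.27, the protease inhibitor Cst7 0.52 and the growth factor Igf1 0.52. MHC class II genes stayed close to cluster 06, with a median position of 0.19 over 4 genes, and Cd74 was 2.04-fold higher than in 06 and 6.53-fold lower than in 04. Fatty acid and lipid droplet genes had a median of 0.23 over 8 genes.

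Immediate early genes instead lay near the level of cluster 04, and cytokine genes came closer to it than later DAM genes. In cluster 08 15 of 18 immediate early genes were at least 1.5-fold higher than in 06 and none differed 1.5-fold from 04, with a median position of 1.03 over 11 genes. Fos was at 1.18. These genes respond to tissue dissociation as well as to signals in the brain, and the part of dissociation was not tested. Cytokine and inflammasome genes had a median position of 0.81 over 6 genes, with Il1b at 1.10 and Tnf at 0.70, and 3 of 11 were at least 1.5-fold lower than in cluster 04 and none higher. The chemokines Ccl3 and Ccl4 were both at 1.22, while the median of 10 chemokines was 0.34. Interferon effectors had a median position of 0.74 over 18 genes, and 12 of 38 measured were higher than in cluster 06.

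**Figure D2:**
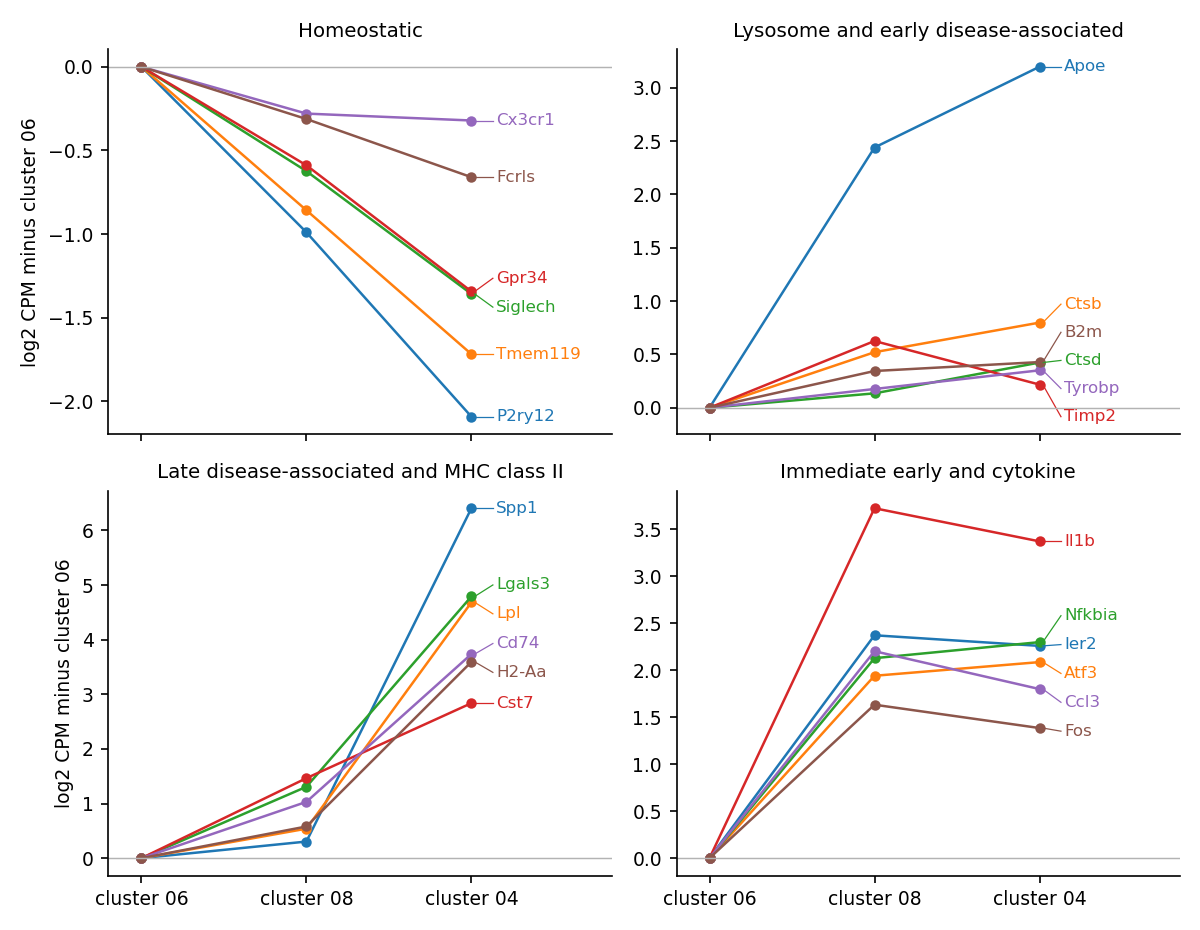
Levels of named genes in clusters 06, 08 and 04 as log2 CPM minus the value in cluster 06 (y axis), in 4 panels of gene groups with all libraries summed; each line is a gene and 0 is the level of cluster 06. P2ry12 and Tmem119 are about midway in cluster 08, Spp1 and Lpl stay near 0 there, and Il1b and Fos reach or pass their level in cluster 04.

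Within single libraries the median position stayed between the ends but moved toward cluster 04 for genes higher there. It was 0.56 within wild type and 0.63 within the heterozygote, over 243 and 289 genes, against 0.46 over all libraries. Of these genes 74.1% and 70.2% lay between the ends, against 83.3% over all libraries. For genes lower in cluster 04 the median was 0.51 and 0.60, against 0.53. The control and knockout libraries held 6 and 13 cells of cluster 04, too few for a position of their own. With 1 library left out at a time the median position ran from 0.46 to 0.51 for genes higher in cluster 04 and from 0.48 to 0.55 for genes lower in it.

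Apoe varied more between the members than the cluster's mean shows. As a share of a cell's UMIs, Apoe ran from 0.12% to 9.94% in control cells with a median of 0.20%. It ran from 0.03% to 15.8% in wild type (median 0.66%), from 0.12% to 21.2% in the heterozygote (median 3.94%) and from 0.13% to 15.3% in the knockout (median 2.24%). Apoe reached 1% of UMIs in 2 of 13 control cells and in 35 of 76 wild-type cells (46.1%, 34.5 to 57.9). It did so in 59 of 77 heterozygote cells (76.6%, 65.6 to 85.5) and 133 of 175 knockout cells (76.0%, 69.0 to 82.1). The ranges overlapped in all libraries, and the wild-type cells were split between low and high Apoe. Within cluster 06 the share of cells at 1% was 10.7% in wild type, 20.2% in the heterozygote and 17.9% in the knockout, and within cluster 04 it was 82.8%, 95.3% and 84.6%.

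In the cuprizone libraries cells with more Apoe had smaller shares of homeostatic genes. Over the cells of 1 library, Spearman's rho between the 2 shares was -0.44 in wild type (76 cells), -0.69 in the heterozygote (77) and -0.44 in the knockout (175), against -0.038 in the 13 control cells. For rho the second share was taken of the cell's UMIs without Apoe, so that Apoe UMIs do not enter it. Cells of 1 library are not replicates. With the share of later DAM and further disease-associated genes, rho was 0.17, 0.33 and 0.50 in the same order, and 0.077 in control. Taken of all UMIs of a cell, the share of these later genes had a median of 0.85% in wild type, 0.95% in the heterozygote and 1.19% in the knockout. The lysosomal share had medians of 6.19%, 6.18% and 6.93%. The homeostatic share had medians of 9.35%, 8.67% and 8.92%.

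**Figure D3:**
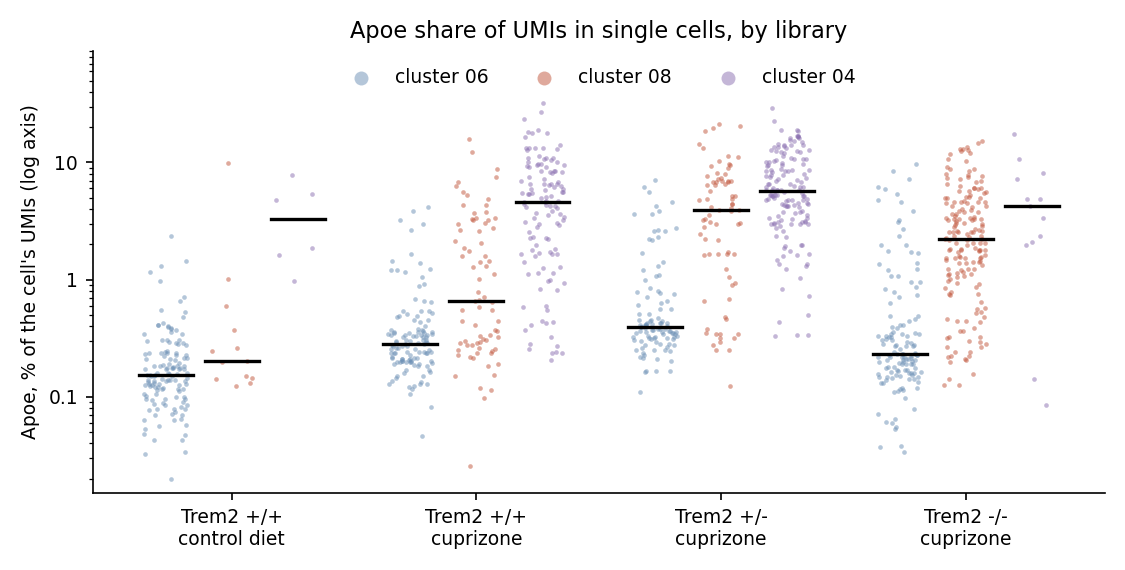
Apoe as a percent of each cell's UMIs (log y axis) in clusters 06, 08 and 04 of each library; each point is a cell and the black line the median, and 1 cell of cluster 06 without Apoe is drawn at 0.02%. The medians of cluster 08 are 0.20%, 0.66%, 3.94% and 2.24% in control, wild type, heterozygote and knockout, and the cells of all 4 libraries overlap.

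Trem2 itself (ENSMUSG00000023992, chr17:48346401-48354147, plus strand) followed the labelled genotypes inside the cluster. It stood at 3178 CPM in control (Poisson interval 2811 to 3581), 2897 in wild type (2743 to 3058), 1763 in the heterozygote (1643 to 1890) and 656 in the knockout (612 to 702). The heterozygote was at 0.61 times wild type (0.557 to 0.665) and the knockout at 0.226 times (0.207 to 0.247), with a UMI in 164 of 175 knockout cells. Since the deleted part of the gene is not given, these tags from the 3′ end do not measure functional transcript. Of the 12 measured genes of the TREM2 signalling list Trem2 was the only one past 1.5-fold between knockout and wild type, and the adaptor Tyrobp stood at 5333 CPM in wild type and 5693 in the knockout.

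Between knockout and wild type, 5 of 11 apolipoprotein and LXR pathway genes were higher in the knockout, while 2 of 5 MHC class II and 4 of 9 cytokine genes were lower. A gene counts as higher or lower when the ratio of summed CPM is at least 2-fold, its interval excludes 1 and both libraries together have 50 UMIs. By this rule 55 of 3634 genes (1.51%) were higher and 31 (0.853%) lower in the knockout. With TMM factors the split was 69 higher and 20 lower, at a shift of 0.07 on the log2 scale. Within lists the limit was 1.5-fold, which 3.08% of all genes passed upward and 4.32% downward. The knockout holds more UMIs than the other libraries, so genes that are low elsewhere reach 50 UMIs mainly through it.

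Apoe was at 9559 CPM in control (8913 to 10239.6), 18649.9 in wild type (18255 to 19051), 47681 in the heterozygote (47045 to 48324) and 33059 in the knockout (32744 to 33377). The heterozygote was the highest and the knockout lay between it and wild type. The knockout was 1.77-fold above wild type (1.73 to 1.81) and the heterozygote 2.56-fold (2.49 to 2.62). Leaving out the cell with the most Apoe UMIs in each library, these ratios were 1.85 and 2.59.

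Other genes of cholesterol export and lipid binding were also higher in the knockout. Of 11 measured apolipoprotein and LXR pathway genes 5 were at least 1.5-fold higher than in wild type and none lower (median log2 ratio 0.38, against -0.01 over all genes). They were Apoe, the exporter genes Abca1 (1.72, 1.09 to 2.82) and Abcg1 (3.47, 1.91 to 6.91), the apolipoprotein gene Apoc1 (3.29, 1.42 to 9.35) and Nr1h2, which encodes the oxysterol receptor LXR beta (2.15, 1.09 to 4.72). The calls of Abca1, Apoc1 and Nr1h2 were each lost under at least 1 alternative, and those of Apoe and Abcg1 under none. Abcg1 stood at 1, 12, 26 and 116 UMIs in control, wild type, heterozygote and knockout (11.8, 26.4, 57.9 and 91.4 CPM). Of 4 fatty acid genes the binding protein Fabp5 and the droplet coat gene Plin2 were higher and Lpl lower. The calls of Plin2 and Lpl were each lost under at least 1 alternative. Fabp5 had 0, 6, 20 and 92 UMIs in the same order, 5.50-fold higher in the knockout than in wild type (2.43 to 15.4). Only 1 gene of cholesterol synthesis and uptake had 50 UMIs, so that pathway could not be read at this depth.

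The DAM stages split between genes. Cst7, an inhibitor of lysosomal proteases, stood at 259 CPM in control (162 to 392), 147 in wild type (114 to 187), 276 in the heterozygote (230 to 329) and 407 in the knockout (372 to 443). The knockout was thus above the other cuprizone libraries, 2.76-fold above wild type (2.14 to 3.62), with the control interval overlapping those of heterozygote and knockout. Timp2 was 1.79-fold higher (1.61 to 1.98) and the receptor tyrosine kinase Axl 2.67-fold lower (1.73 to 4.10). Lpl was 1.67-fold lower (1.03 to 2.68) with 30 and 50 UMIs, a call lost under at least 1 alternative. Altogether 2 of 13 measured genes of the later stage were higher and 2 lower (median log2 ratio 0.37). In the early stage 2 of 8, Apoe and Ctsb, were higher (median 0.25). Ctsb, a cathepsin, was at 3638, 3806, 4466 and 6627 CPM in control, wild type, heterozygote and knockout.

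Further disease-associated genes had 5 of 8 measured members higher (Fabp5, Apoc1, Igf1, Plin2, Lgals3) and 1, the actin-capping Capg, lower. The calls of Apoc1, Igf1 and Plin2 were each lost under at least 1 alternative. The median log2 ratio of these 8 was 0.99, but it was -0.12 over all members with no minimum of UMIs, so the list as a whole has no clear direction. Lgals3 stood at 50.5 CPM in wild type and 97.7 in the knockout (1.93-fold, 1.23 to 3.16). Spp1, with 0, 30, 43 and 67 UMIs, was at 65.9 CPM in wild type and 52.8 in the knockout, and 1 knockout cell held 53.7% of the knockout UMIs. Without the richest cell of each library Spp1 was 2.25-fold lower in the knockout.

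Beyond the lists, Syngr1, which encodes a synaptogyrin, a vesicle membrane protein (ENSMUSG00000022415, chr15:80091334-80119501), was higher in the knockout. It was at 612 CPM in control (457 to 803), 677 in wild type (603 to 756), 619 in the heterozygote (548 to 696) and 1480.1 in the knockout (1414 to 1549). Only the knockout stood apart from the other 3 libraries, 2.19-fold above wild type (1.94 to 2.48), and the gene had a UMI in all 175 knockout cells. Other genes named by the size rule were the muscle-type respiratory subunit Cox6a2 (3.64, 2.06 to 7.02), the hypoxia factor Hif1a (2.71, 1.65 to 4.71), the mitophagy receptor Bnip3 (2.75, 1.5 to 5.52), the histone H2afj (2.56, 1.65 to 4.15) and Dtnbp1 (2.11, 1.36 to 3.40). Mbp, a myelin gene of oligodendrocytes, was 2.49-fold higher (1.41 to 4.72). It had 2, 14, 7 and 97 UMIs in the 4 libraries, and the oligodendrocyte markers together stood at 127 CPM in wild type and 191 in the knockout. Without the cells that carry neutrophil markers its ratio fell short of 2-fold, at 1.91.

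Some MHC class II and cytokine genes were lower in the knockout. Cd74 stood at 471 CPM in control (336 to 641), 567 in wild type (500 to 640), 655 in the heterozygote (582 to 734) and 194 in the knockout (170 to 220). The knockout interval lay below all others, and the level was 2.92-fold lower than in wild type (2.44 to 3.49). H2-Ab1 was 1.88-fold lower (1.31 to 2.69), so 2 of 5 measured class II genes were lower, with a median log2 ratio of -0.49. As a share of a cell's UMIs the class II list had medians of 0.0946% in wild type, 0.10% in the heterozygote and 0.0652% in the knockout. It passed 1% in 1, 2 and 1 cells of these libraries. None of 11 MHC class I genes passed 1.5-fold, with B2m at 0.95 times wild type.

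Of 9 cytokine and inflammasome genes 4 were lower and none higher (median -0.64). They were Il1b (2.22-fold lower, 1.82 to 2.70), Tnf (1.85-fold, 1.36 to 2.51) and the NF-kappaB feedback genes Nfkbia (1.67-fold, 1.53 to 1.83) and Nfkbiz (1.6-fold, 1.17 to 2.16). The call of Il1b was lost under at least 1 alternative, and those of Tnf, Nfkbia and Nfkbiz under none. Il1b was seen in 33 of 76 wild-type and 58 of 175 knockout cells. Lower too were the membrane protein genes Tmem176a (2.75-fold, 2.21 to 3.43), Tmem176b (2.16-fold, 1.83 to 2.55), Cd52 (2.35-fold, 2.05 to 2.68) and Cd34 (2.74-fold, 2.1 to 3.57). The survival gene Bcl2a1a (3.21-fold, 2.32 to 4.47), the actin-binding Tmsb10 (2.31-fold, 1.91 to 2.78) and the protease Adamts1 (2.69-fold, 1.85 to 3.93) completed the named genes. Bcl2a1a has near-identical copies in the mouse genome, between which the counting may have divided reads.

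Most other groups had few or no members past the limit between knockout and wild type. None of 18 immediate early, 11 mitochondrial and 37 ribosomal protein genes passed 1.5-fold in either direction. Of 24 homeostatic genes the Fc receptor-like gene Fcrls (1.81, 1.64 to 1.99) and the leukotriene synthase Ltc4s (1.51, 1.33 to 1.72) were higher and none lower, with P2ry12 at 1.07 (0.99 to 1.15). Of 24 lysosomal genes Ctsb was higher and the proteases Ctsc and Ctsh lower. Interferon effectors had 3 of 19 members lower (Ifi27l2a, Ifi204, Phf11b) and none higher. The calls of Ctsc, Ifi204 and Phf11b were each lost under at least 1 alternative. Phagocytosis receptors (1 of 11 higher, 2 lower), chemokines (1 of 9 higher, 1 lower) and glycolysis genes (2 of 12 higher) each had a small number past it. Heat shock chaperones had 3 of 9 lower (Hspa1a, Hsp90aa1 and Dnaja1) and none higher, against 4.32% lower over all genes, with a median log2 ratio of -0.26. The calls of Hsp90aa1, Dnaja1, the phagocytosis receptor Stab1 and the glycolysis gene Pgk1 were each lost under at least 1 alternative.

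The heterozygote differed from wild type in few genes. By the size rule 8 of 2211 genes (0.362%) were higher and 13 (0.588%) lower, and 2.04% and 2.89% passed 1.5-fold in each direction. Apoe and the heat shock gene Hspa1a were the higher genes with enough UMIs to be named. Hspa1a was at 74.7 CPM in wild type, 200.4 in the heterozygote and 41.0 in the knockout, 2.68-fold higher in the heterozygote (1.79 to 4.11). Among the lower genes the TGF-beta inhibitor Smad7 was 2.2-fold lower (1.5 to 3.27), a call lost under at least 1 alternative. Hspa1a set the heterozygote library apart from both others and does not follow the number of Trem2 copies.

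Among the lists, Cst7 (1.88, 1.38 to 2.56) was the only 1 of 12 later DAM genes past 1.5-fold, and Apoe the only 1 of 8 early ones. None of 24 homeostatic, 24 lysosomal, 8 complement and 5 class II genes passed in either direction. Ifit3 was 2.03-fold higher (1.32 to 3.18), but 51.5% of the heterozygote's Ifit3 UMIs came from 1 cell, and with the richest cell of both libraries left out the ratio was 1.24. Cst7 and Abcg1 (26.4, 57.9 and 91.4 CPM) stood between wild type and knockout in the heterozygote. Apoe, Apoc1 (13.2, 84.6 and 43.3 CPM) and Lgals3 (50.5, 100.2 and 97.7 CPM) were as high or higher in the heterozygote as in the knockout. Syngr1, Cd74 and Tmem176a in the heterozygote lay near wild type. Both comparisons use the same wild-type library.

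Against the heterozygote, 37 of 3642 genes (1.02%) were higher in the knockout and 24 (0.659%) lower, with 2.88% and 3.08% past 1.5-fold. With TMM factors, which shift this ratio by 0.05 on the log2 scale, the split was 50 to 19. The higher genes again held Syngr1 (2.39, 2.11 to 2.72), Hif1a (2.19, 1.39 to 3.61), Ccl5 (6.24, 3.41 to 12.7) and Mbp (4.91, 2.29 to 12.5), and in addition Ramp1 (2.25, 1.57 to 3.31), a partner of peptide hormone receptors. Ppp2ca, Camk2n1, Acp1 and Ppp1r14b, which encode phosphatases or regulators of kinases and phosphatases, were 2.03-fold to 2.38-fold higher. Lower were Hspa1a (4.89-fold, 3.44 to 7.02), Crip1 (3.57-fold, 2.45 to 5.22), Axl (3.55-fold, 2.38 to 5.32), Cd74 (3.38-fold, 2.84 to 4.02), H2-Ab1 (2.22-fold, 1.57 to 3.13), Tmem176a, Tmem176b, Cd34 and the chemokine gene Cxcl16. The calls of Hif1a, Ppp1r14b, H2-Ab1, Cd34 and Cxcl16 were each lost under at least 1 alternative.

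Apoe was at 0.69 times the heterozygote level in the knockout (0.682 to 0.705), and Apoc1 was 1.95-fold lower. In the later DAM stage 1 of 13 genes was higher and 3 (Axl, Lpl, Spp1) lower, and of 22 interferon effectors 5 (Ifit1, Isg15, Ifi204, Sp100, Irgm1) were lower and none higher. Each of these 5 interferon calls was lost under at least 1 alternative: Ifit1 was at 1.29 times the heterozygote without the richest cells and Isg15 at 1.51 times without the interferon subset described below. The calls of Apoc1, Lpl and Spp1 were likewise each lost under at least 1 alternative. The neutrophil gene S100a8 was 2.54-fold lower (1.56 to 4.11), beside neutrophil list sums of 185 and 96.9 CPM. In an alternative, the 46 members with at least 2 UMIs of neutrophil markers were left out. The same limit on T and NK cell markers other than Ccl5 removed no member, as 219 of that list's 220 UMIs were Ccl5. Then 45 genes were higher and 23 lower in the knockout than in the heterozygote. They held just 17 of the 37 genes first called higher and 11 of the 24 first called lower. Against wild type the call was kept by 42 of 55 genes upward and 24 of 31 downward. S100a8 was chosen after its values were seen.

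**Figure D4:**
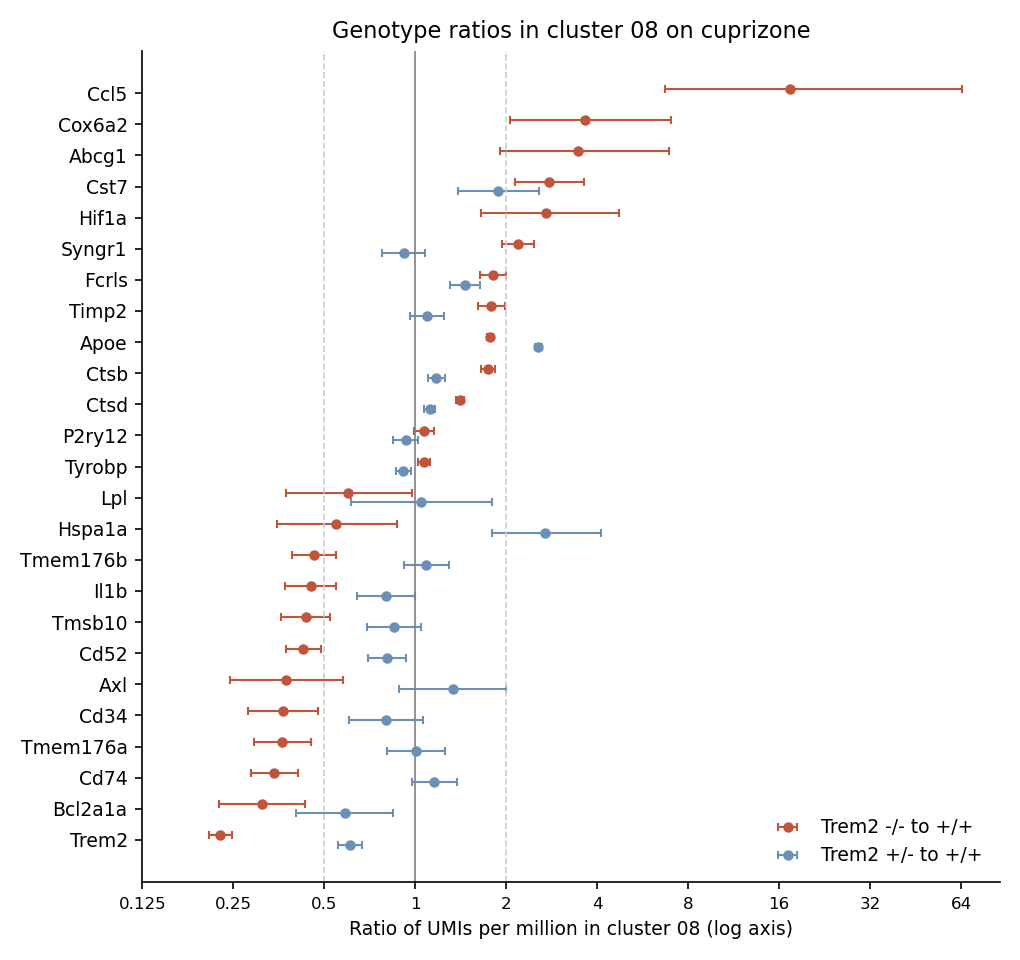
Ratios of CPM in cluster 08 to the wild-type cuprizone library (log axis) for named genes in the heterozygote and the knockout; points are ratios of summed UMIs and bars their exact 95% intervals, the solid line marks 1 and the dashed lines 2-fold. Heterozygote points are left out where wild type and heterozygote together have under 50 UMIs. Syngr1, Cst7 and Abcg1 lie to the right and Cd74, Cd52 and Tmem176a to the left in the knockout, while Apoe lies to the right in both.

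The 13 control cells allow only a rough view of cuprizone against control diet in wild type. By the size rule 24 of 1351 genes (1.78%) were higher on cuprizone and 12 (0.888%) lower, and 3.11% and 3.26% passed 1.5-fold. TMM factors, which shift this ratio by 0.25 on the log2 scale, gave 46 and 6. Single cells weighed heavily: 1 control cell held 67.9% of the control Apoe UMIs, and the Apoe ratio of 1.95 (1.82 to 2.1) became 5.33 once the richest cell on each side was left out. The lower call of the chemokine Ccl12 (4.32-fold, 3.37 to 5.53) turned to 2.02-fold higher in that way, as 1 control cell held 90.1% of its UMIs. The transcription factor Klf2 was 2.71-fold lower (2.28 to 3.23), at 2.58-fold lower without the top cells. The signalling regulator Rgs1 (8.15, 2.73 to 40.02) and the kinase Sgk1 (2.78, 1.77 to 4.62) were among the higher genes.

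Set beside the same contrast in clusters 02, 04 and 06, some knockout differences were shared and others were not. Trem2 in the knockout was at 0.18, 0.20 and 0.16 times wild type in these clusters and at 0.23 in cluster 08. Syngr1 was at 1.47, 1.42 and 1.46 against 2.19, Timp2 at 1.34, 1.39 and 1.30 against 1.79, and Tmem176a at 0.55, 0.30 and 0.76 against 0.36, all in the direction seen in cluster 08. Apoe was at 0.77, 0.97 and 1.72 against 1.77, so it was higher in the knockout in cluster 06 and lower in cluster 02. Cd74 was lower in cluster 02 (0.27) and 06 (0.55) but not in cluster 04 (1.09), which holds 13 knockout cells. Cst7 was at 0.79, 0.23 and 1.65 against 2.76, the 0.23 resting on 27 knockout UMIs in cluster 04. No difference between clusters could be tested with 1 library a group, and the knockout cells are spread differently over the clusters.

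A small set of members carried an interferon programme. These are the 30 of 341 cells with at least 2 UMIs of Ifit1 and Ifit3 together, and the counts of these 2 genes chose them. Ifit1 and Ifit3 encode proteins that block viral RNA, and their promoters hold the interferon-stimulated response element, to which that complex binds. The 250 bases before the annotated start of each gene are given for Ifit1 (chr19:34640639-34640888, plus strand) and Ifit3 (chr19:34583279-34583528, plus strand), and for 2 genes that were high in the same cells, Isg15 (chr4:156200819-156201068, minus strand) and Cxcl10 (chr5:92348890-92349139, minus strand). Sequences are those of RefSeq on GRCm38.p6, written 5′ to 3′ along the gene. Capitals mark GAAANNGAAA on either strand.
Ifit1: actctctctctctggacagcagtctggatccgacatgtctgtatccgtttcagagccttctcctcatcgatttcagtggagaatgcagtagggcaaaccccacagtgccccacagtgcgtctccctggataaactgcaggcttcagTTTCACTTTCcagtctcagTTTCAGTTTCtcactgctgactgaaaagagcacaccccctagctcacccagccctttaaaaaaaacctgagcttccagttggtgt
Ifit3: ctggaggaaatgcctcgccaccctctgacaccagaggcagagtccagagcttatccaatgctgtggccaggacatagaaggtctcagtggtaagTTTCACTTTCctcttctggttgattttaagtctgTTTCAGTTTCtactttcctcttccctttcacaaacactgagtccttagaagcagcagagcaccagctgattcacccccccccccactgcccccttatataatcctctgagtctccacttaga
Isg15: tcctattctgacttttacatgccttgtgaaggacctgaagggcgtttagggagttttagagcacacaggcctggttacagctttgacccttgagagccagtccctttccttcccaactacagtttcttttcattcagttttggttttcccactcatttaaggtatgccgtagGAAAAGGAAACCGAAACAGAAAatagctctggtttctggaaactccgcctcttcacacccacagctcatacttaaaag
Cxcl10: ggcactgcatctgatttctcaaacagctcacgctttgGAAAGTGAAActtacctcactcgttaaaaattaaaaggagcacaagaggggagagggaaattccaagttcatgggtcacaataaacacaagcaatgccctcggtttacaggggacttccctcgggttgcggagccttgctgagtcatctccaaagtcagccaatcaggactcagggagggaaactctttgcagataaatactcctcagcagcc

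Ifit1 and Ifit3 each had 2 matches, all on the opposite strand, within 75 to 104 and 112 to 156 bases before the start. Isg15, which encodes a ubiquitin-like modifier, had 3 overlapping matches 56 to 78 bases before it, and Cxcl10, a T cell attractant, had 1 match 203 to 213 bases before it. Over 300 bases, from 250 before to 50 after the start, the motif occurred in 1131 of 32851 promoters (3.44%). It occurred in 22 of 39 interferon effectors with a promoter in the table (56.4%), in 4 of 6 sensors and in 2 of 10 signalling genes. The promoters of Apoe, Trem2, Irf7 and Ccl12 had no match in this window. A match is a description of the letters and shows no binding.

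Ifit1 and Ifit3 UMIs were concentrated in few cells. No UMI of either was found in 283 members, 1 in 28, 2 in 10 and at least 3 in 20, so the limit of 2 falls among cells with low counts. The richest cell, from the heterozygote, had 51 of the 297 UMIs, or 57.3% of that library's total, and the richest knockout cell had 50. Subset cells were 1 of 13 in control, 9 of 76 in wild type (11.8%, 5.56 to 21.3), 6 of 77 in the heterozygote (7.79%, 2.91 to 16.2) and 14 of 175 in the knockout (8.0%, 4.44 to 13.1). These intervals overlap, and with 1 library a group a genotype difference in the share could not be tested. With each cell thinned to 3732 UMIs the expected shares were 8.19% in wild type, 4.87% in the heterozygote and 5.98% in the knockout. Ifit3 stood at 129 CPM in control, 72.5 in wild type, 147 in the heterozygote and 99.3 in the knockout, and Ifit1 at 0, 11.0, 51.2 and 26.0, where the control count of 0 allows up to 35.3 CPM.

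Other interferon genes followed Ifit1 and Ifit3 in these cells. Of 44 effectors in the table other than those 2, 23 had 50 UMIs, and 20 of the 23 were at least 2-fold higher in the 30 cells than in the other 311 (median log2 ratio 2.23). Among all genes with 50 UMIs 2.08% were that much higher and 1.35% lower. The remaining 21 effectors had under 50 UMIs, and all 21 had a ratio above 1. Without the richest cell for each gene 19 of 22 were still 2-fold higher, with a median of 2.08. The subset was chosen on related genes of the same cells, so these counts describe it and test nothing.

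By role, sensors, signalling genes and effectors differed. The effectors Ifit3b (98.1, 39.5 to 315), Isg15 (22.5, 16.1 to 31.8), the oligoadenylate synthetase-like Oasl2 (10.8, 6.44 to 18.2), the DNA-binding Ifi204 (8.69, 6.02 to 12.5) and the membrane protein Ifitm3 (4.29, 3.59 to 5.11) were all higher. Isg15 was at 563 CPM in the subset and 25.02 in the rest, with a UMI in 22 of 30 and 44 of 311 cells. Ifit3b is a close copy of Ifit3, and reads of the 2 genes may have been divided between them. Bst2 (1.95), Ifi35 (1.85) and Lgals9 (1.75) stayed below 2-fold. Among signalling genes Irf7 (7.41, 4.96 to 11.0), the feedback protease Usp18 (10.9, 6.71 to 18.0) and Irf1 (2.18, 1.29 to 3.55) passed, whereas the receptor genes Ifnar1 (0.84) and Ifnar2 (1.15), the kinase Jak1 (0.88) and Irf9 (0.99) did not. Of 2 measured sensors the RNA-activated kinase Eif2ak2 passed (2.48, 1.15 to 4.92) and Tmem173, which encodes STING, did not (1.07).

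Chemokines were uneven in the subset. Cxcl10 was 11.7-fold higher (8.42 to 16.3), although 1 cell held 50% of its subset UMIs, and Ccl12 was 6.99-fold higher (6.02 to 8.11). Ccl4 was at 1.55, Ccl3 at 0.98 and Ccl6 at 0.48 times the rest (0.33 to 0.68). Ccl6 is also a member of the later DAM list. Of single microglial and DAM genes, P2ry12 was at 0.89, Trem2 at 0.90, Apoe at 0.88 and Cst7 at 0.92 times the rest. In MHC class I, B2m was at 1.06 and H2-D1 at 1.05, while the peptide transporter gene Tap1 was at 2.62 (1.43 to 4.56).

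The programme formed a range, not a separate block. All other genes of the 3 interferon lists together made up a median of 0.97% of UMIs in subset cells (0.35% to 6.49%) and 0.28% in the rest (0.07% to 1.17%). The highest value was that of the single control cell. Of the other 311 cells 4 reached the subset median, so some cells with interferon genes lay below the limit set on Ifit1 and Ifit3.

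**Figure D5:**
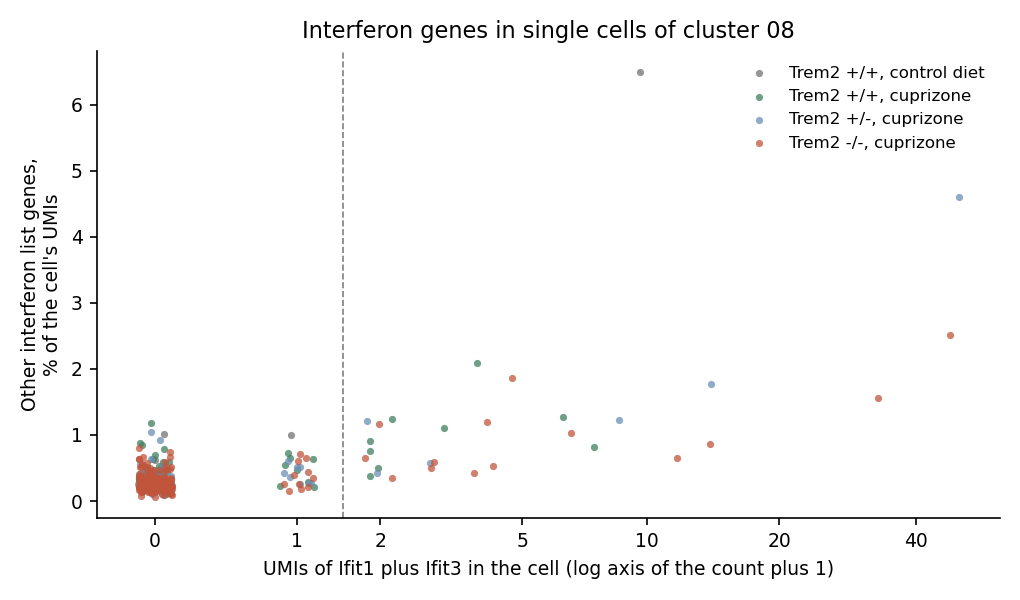
Each member of cluster 08 by its Ifit1 and Ifit3 UMIs (x axis) and by the percent of its UMIs from all other interferon list genes (y axis), coloured by library. The x axis is on a log scale of the count plus 1, points at the same count are spread sideways, and the dashed line marks the limit of 2 UMIs. Most of the 283 cells with 0 UMIs lie low, with a median of 0.28% in the 311 cells outside the subset, and the 30 subset cells have a median of 0.97%.

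The same rule found such cells in every cluster. At full depth the share was 8.80% in cluster 08 (6.01 to 12.3), 9.97% in cluster 04, 14.0% in cluster 02, 10.1% in cluster 07 and 2.83% in cluster 06, but deeper cells have more UMIs to count. With each cell thinned to 3732 UMIs, which left out 34 of the 341 members (2, 7, 9 and 16 from control, wild type, heterozygote and knockout), the expected share was 6.02% in cluster 08, 4.88% in 04, 4.60% in 07, 3.42% in 03, 3.09% in 02, 1.89% in 05, 1.48% in 06 and 1.28% in 01. The interferon genes helped to form the clusters, so this order is a description. Thinning kept just 213 of 494 cells in cluster 06 and 147 of 435 in cluster 01, so their shares rest on their deeper cells.

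Ccl5, a T cell and monocyte attractant (chr11:83525778-83530518, minus strand), was seen in few members, most of them knockout cells. It had a UMI in 2 of 13 control, 4 of 76 wild-type (5.26%, 1.45 to 12.9), 2 of 77 heterozygote (2.60%, 0.32 to 9.07) and 20 of 175 knockout cells (11.4%, 7.12 to 17.1). The libraries held 10, 4, 11 and 194 UMIs. One knockout cell held 121 of the 194 and a further cell 32, and 13 of the 20 knockout cells had a single UMI. The knockout ratio to wild type was 17.4 (6.69 to 64.5) and 8.69 without the richest cell of each library, so its size rests on few cells. Of the 28 Ccl5 cells 4 belonged to the interferon subset, and 7 cells with at least 5 UMIs held 88.1% of all Ccl5 UMIs. At the thinned depth 6.13% of cluster 08 cells and 6.21% of cluster 02 cells had a Ccl5 UMI. The share was 5.02% in cluster 04, 4.26% in 01, 3.37% in 06, 3.10% in 07, 1.75% in 03 and 1.18% in 05. Nkg7 and Klrb1c, markers of NK and cytotoxic T cells, were at 0 in cluster 08.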

How the data were processed

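Single microglia of 4 libraries, 1 per group, were measured with the Chromium 3′ v2 chemistry. The deposited values are counts of UMIs per gene and cell for the cells the authors kept after removing low-quality cells, and the authors' cluster of each cell comes from their deposited annotation. Alignment used Cell Ranger 2.1.1 and mm10, per the submitters' processing notes. Members were taken from the annotation with no further filter. Scrublet (in scanpy 1.11.5) marked 25 of all cells as doublets, 6 of them members and 4 of these in the knockout. They were kept and left out only in an alternative.

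UMIs were summed per library over the members and divided by their total (CPM), with Python 3.11.15, numpy 2.4.6, scipy 1.17.1 and pandas 2.3.3. Figures were drawn with matplotlib 3.10.9. A ratio has an exact conditional binomial 95% interval, a level an exact Poisson interval and a share an exact Clopper-Pearson interval. All cover counting error only, and spread between animals is not measured. A library at 0 UMIs was given a floor of 3 UMIs for ratios. No p-value was computed, as each group is 1 library.

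Genes named were Trem2, the 4 markers, the 12 genes with the largest ratio of cluster 08 to the other microglial clusters, up to 10 higher and 10 lower genes per comparison by the interval bound nearest 1, and list members by UMIs and ratio. Some further list members were named after their values were seen. A few genes that the rule names are not reported here. The members, gene lists and rules were chosen with earlier results of these data known. Alternatives were TMM factors (edgeR 4.0.16), the mean CPM per cell, and minima of 20 UMIs or none. Others left out the top cell of each gene, the interferon subset, doublets and deep cells, cells with neutrophil or T and NK cell markers, or 1 library. The T and NK cell part of that filter removed no member. Ratios were also tested on simulated data. Promoters are RefSeq's on GRCm38.p6 and gene locations are GENCODE's on GRCm38.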

Additional observations from a re-analysis of the deposited data

Results flagged for a closer look

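Among genes picked for comparison across clusters, 5 had knockout to wild-type ratios in opposite directions. Each was at least 1.5-fold higher in cluster 08 and at least 1.5-fold lower in another cluster, with both intervals excluding 1. With 1 library a group the difference between clusters was not tested for any of them. Fabp5 was 5.50-fold higher in cluster 08 (2.43 to 15.4) and at 0.58 times wild type in cluster 02 (0.419 to 0.807). Lgals3 was 1.93-fold higher in cluster 08 (1.23 to 3.16) and at 0.34 times in cluster 02 (0.279 to 0.405). Cst7 was 2.76-fold higher in cluster 08 (2.14 to 3.62) and at 0.23 times in cluster 04 (0.148 to 0.331), where 13 knockout cells gave 27 UMIs. Ccl5 was 17.4-fold higher in cluster 08 (6.69 to 64.5) and at 0.29 times in cluster 04 (0.133 to 0.563), on 9 knockout UMIs. Mbp was 2.49-fold higher in cluster 08 (1.41 to 4.72) and at 0.34 times in cluster 06 (0.174 to 0.614). Its ratio in cluster 08 was 1.91, under 2-fold, without the cells that carry neutrophil markers.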

How the results depend on the processing

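Of 174 recomputed counts, shares and positions 135 stayed near the reported value and 39 moved. Counts were judged by 1.5 times, shares by the reported interval and positions by a small fixed distance from the reported position. Of 142 gene ratios called in the report or its lists 83 kept their call under all 8 alternatives: 37 of 55 for knockout against wild type, 20 of 40 for knockout against heterozygote, 11 of 19 for heterozygote against wild type and 15 of 28 for cuprizone against control. With TMM factors the wild-type comparison of cuprizone with control diet had 46 higher and 6 lower genes and 36 list members higher. Knockout against wild type then had 20 lower genes, knockout against heterozygote had 15 list members higher, and 173 genes were lower in cluster 04 than in 06. With the mean CPM per cell, cuprizone against control had 25 lower genes and heterozygote against wild type 13 higher.

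The minimum of UMIs set the counts. At 20 UMIs there were 64 lower genes for cuprizone against control, 54 higher and 58 lower (14 list members higher) for heterozygote against wild type, 116 and 106 for knockout against wild type and 96 and 111 for knockout against heterozygote. With no minimum, cuprizone against control had 162 lower genes and 22 list members lower, and heterozygote against wild type 106 higher and 101 lower with 21 list members higher. Knockout against wild type then had 119 and 192, and knockout against heterozygote 102 and 193 with 38 list members lower. The median of the further disease-associated list, knockout against wild type, turned to -0.12.

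Without the top cell of each gene, cuprizone against control had 3 lower genes, 20 list members higher and 3 lower, and Ccl12 turned to 2.02, Il1b to 1.02 and Ifitm3 to 1.01. Knockout against heterozygote then had 56 higher genes and 15 list members higher, its chemokine median turned to 0.082 and Ifit1 to 1.29. Without the interferon subset Ccl12 (cuprizone against control) turned to 1.56, Ifit3 (heterozygote against wild type) to 0.847 and, for knockout against heterozygote, Isg15 to 1.51 and the chemokine median to 0.33. Without doublets and the deepest cells the class II median of heterozygote against wild type turned to -0.081. The causes of these turns were not tested. Without cells carrying neutrophil markers the counts stayed within 1.5 times. Of the genes called for knockout against heterozygote, however, only 17 of 37 higher and 11 of 24 lower were kept.

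The knockout share was 23.2% of the cells in the microglial clusters and 23.8% of cells at or above the fixed depth. At 4-fold between clusters 06 and 04, 149 genes were higher and 12 lower. Within wild type 243 genes were higher with a median position of 0.56, and within the heterozygote the position was 0.63. Leaving out 1 library at a time gave 330 to 408 genes higher and 400 to 470 lower in cluster 04. The interferon subset had 58 cells at a limit of 1 UMI and 20 at 3. No paired analysis was possible because each group is 1 library. Low genes could not be compared in the 13 control cells, where 1 UMI is 11.8 CPM.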
